A study of Mus musculus with 65 samples.

Results

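The genes described here are named as genes for proteins of the mitochondrial ribosome, and were followed across single blood stem cells of old mice. They were chosen by name alone, as every protein-coding row of the count table whose symbol was Mrpl or Mrps followed by a number. 43 of the 18036 gene identifiers in the table met this rule, out of 78 such genes in the mouse annotation, and the other 35 were not analysed here. A count was found for 42 of the 43 in at least 1 cell, beside 6786 genes of the whole table, and Mrpl53 was at 0 in every cell. The cells were 37 label-retaining hematopoietic stem cells (alr-hsc, GFP positive, called aLR cells here) and 28 that had not retained the label (anlr-hsc, GFP negative, called anLR cells), and the series asked how these differ in aged marrow. Both groups came from SCL-tTAxH2B-GFP mice, double heterozygous and older than 20 months, whose tetracycline transactivator is under SCL control and whose reporter is a histone H2B fused to GFP. Both were flushed from femora and tibiae, sorted singly as lineage-depleted LSK CD34-/low Flk2- CD48- CD150+ cells, and kept overnight at 3% O2 with no growth factor before lysis. The cells fell into 4 biological repeats, with 9, 9, 10 and 9 aLR and 8, 4, 6 and 10 anLR cells in repeats 1 to 4. The labels give neither the number of mice behind a repeat nor the schedule by which the label was switched off.

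Mitochondria carry ribosomes of their own, which translate the few messages of the mitochondrial genome, all of them for subunits of the respiratory chain and ATP synthase. The ribosomal RNAs are made inside the organelle, but every protein of this ribosome is encoded in the nucleus, translated in the cytosol and imported. Many of these proteins descend from those of bacterial ribosomes, and the rest were added in the mitochondrial lineage. The large subunit (most Mrpl genes) joins amino acids, and the small subunit (most Mrps genes) reads the message. In hematopoietic stem cells mitochondrial activity is known as a feature that separates quiescent from cycling cells.

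The promoters of 38 of the 43 members were in the RefSeq table for GRCm38.p6, with 42 windows reaching from 250 bases before to 50 bases after a transcription start. Mrpl15, Mrpl19, Mrpl38, Mrpl54 and Mrps35 had no entry. The windows of 3 members are shown, in the direction of transcription, picked by the differences in detection named next, each with limits given below. Mrpl51 had the only shares of cells with a count of at least 1 that did not overlap between the groups at full depth. Mrps12 had the largest difference in mean share. Mrps24 had the only shares that did not overlap after random thinning to equal depth, with the limits given below. Capitals mark the letters CCGGAAG (the core of sites bound by ETS factors such as GABPA), which start at base 161 of the Mrpl51 window and, on the same strand, at base 252 of the Mrps12 window, and the letters AAGATGGCG (the core of YY1 sites), which start at base 287 of the Mrps24 window. The windows are chr6:125191950-125192249 on the plus strand, chr7:28741772-28742071 on the minus strand and chr11:5707652-5707951 on the minus strand.
Mrpl51: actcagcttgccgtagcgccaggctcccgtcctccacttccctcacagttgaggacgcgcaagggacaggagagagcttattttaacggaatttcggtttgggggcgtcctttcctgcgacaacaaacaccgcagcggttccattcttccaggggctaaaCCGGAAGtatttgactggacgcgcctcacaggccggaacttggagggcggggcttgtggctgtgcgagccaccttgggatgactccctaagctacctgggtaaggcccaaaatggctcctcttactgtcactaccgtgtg
Mrps12: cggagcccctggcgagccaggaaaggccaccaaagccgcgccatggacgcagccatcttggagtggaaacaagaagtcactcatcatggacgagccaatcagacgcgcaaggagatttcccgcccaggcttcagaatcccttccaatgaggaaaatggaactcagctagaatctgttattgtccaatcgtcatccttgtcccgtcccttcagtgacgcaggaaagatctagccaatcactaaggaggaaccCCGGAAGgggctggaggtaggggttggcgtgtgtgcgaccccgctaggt
Mrps24: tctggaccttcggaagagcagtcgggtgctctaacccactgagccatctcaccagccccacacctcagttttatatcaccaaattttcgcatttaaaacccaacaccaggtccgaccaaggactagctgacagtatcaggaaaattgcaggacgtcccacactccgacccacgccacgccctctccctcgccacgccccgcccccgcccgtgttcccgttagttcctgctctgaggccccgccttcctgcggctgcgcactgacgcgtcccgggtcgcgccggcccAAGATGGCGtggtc

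The ETS letters stood, on either strand, in 14 of the 42 member windows (33.3%), beside 15.0% of the 6542 windows of genes with a count and 11.6% of the 21263 windows of protein-coding genes. YY1 letters stood in 6 member windows (14.3%), beside 2.90% of windows of genes with a count and 1.83% of those of protein-coding genes. GCATGCGC, most of the palindromic site of NRF1, stood in 4 (9.52%), beside 4.42% and 3.52%. TATAAA stood in 3 (7.14%), beside 8.42% and 12.6%. The 3 factors are textbook regulators of nuclear genes for mitochondria, and the matches say only which letters these windows hold. For 11 members a protein-coding gene of the other strand starts inside the window. Mrps12 starts 147 bases from Sars2, the mitochondrial seryl-tRNA synthetase, and Mrpl46 starts 42 bases from Mrps11, another member.

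Total counts ran from 27954 to 20516069 per aLR cell (median 264894) and from 86 to 661078 per anLR cell (median 118056). Of the anLR cells 4 held fewer than 10000 counts. Median totals were 1654517, 697583, 201268 and 164961 in aLR repeats 1 to 4, against 65358, 41004, 271753 and 201757 in anLR repeats. By the median, aLR cells were thus deeper in repeats 1 and 2 and shallower in repeats 3 and 4. Detection below means a count that rounds to at least 1. The kit marks no molecules, so reads of 1 molecule can be counted many times, and intervals cover counting error only. Some libraries were alike beyond their group. Of 2080 pairs of cells 18 correlated above 0.5 in log2 counts over the genes found in either (median over all pairs 0.0428, highest between repeats 0.304). All 18 lay within a repeat, 11 joined neighbouring cell numbers and 3 joined an aLR with an anLR cell. aLR cells 20 and 21 of repeat 3 reached 0.953 and shared 16 of the 18 and 17 members found in them. aLR cell 3 and anLR cell 3, both of repeat 1, reached 0.842 and shared 15 of 20 and 24 members. Whether such pairs share cells or RNA was not tested, and results are also given with only the deepest cell of each of the 9 groups of like cells kept, which left 28 aLR and 23 anLR cells.

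More mitochondrial ribosomal protein genes were detected in aLR than in anLR cells in all 4 repeats, at the unequal depths given above. In aLR cells 21.4, 16.2, 8.90 and 7.67 members were detected per cell in repeats 1 to 4, against 12.1, 9.50, 5.00 and 3.20 in anLR cells. Over repeats the means were 13.6 ± 6.47 in aLR and 7.46 ± 4.09 in anLR cells (SD, n = 4 repeats each). Single aLR cells ran from 1 to 29 members (median 14) and single anLR cells from 0 to 24 (median 5), so the cells of the groups overlapped widely. The order of the groups was the same in each repeat, while repeats 3 and 4 were low in both groups. With like cells reduced the means were 12.9 ± 6.67 in aLR and 6.55 ± 2.91 in anLR cells, again with aLR cells ahead in 4 of 4 repeats. No test was run on this count, since it sums over genes picked as a group.

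**Figure D1:**
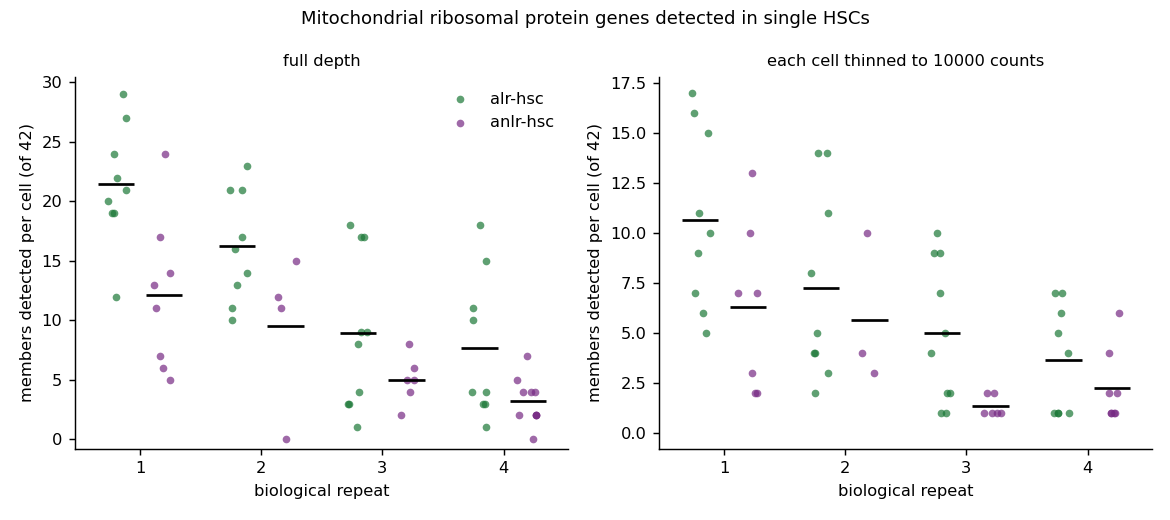
Members detected in each cell (points) by biological repeat, at full depth (left) and after every cell was thinned to 10000 counts (right, without 4 shallower anLR cells). Bars are means over cells, which were higher in aLR (green) than in anLR cells (purple) in each of the 4 repeats on both panels.

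The difference was close to that of the whole transcriptome in these cells. aLR cells held 32.3% of the 42 members and 27.7% of all 6786 genes, against 17.7% and 15.5% in anLR cells (means over repeats). The ratio between the groups was 1.82 for the members and 1.78 for all genes. After each cell was thinned to 10000 counts the members stood at 15.8% in aLR and 9.25% in anLR cells, a ratio of 1.71, beside 12.9% and 8.54%, a ratio of 1.51, for all genes. Thinned aLR cells were ahead for the members in 4 of 4 repeats and for all genes in 3 of 4. Across cells the number of members followed the number of other genes found, with r = 0.76 over 37 aLR and r = 0.83 over 28 anLR cells, which describes cells that share libraries and depth.

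The members' place among all genes differed between repeats, in the same direction in both groups at full depth. In repeats 1 and 2 the share of members found exceeded the share of all genes found, by factors of 1.37 and 1.66 in aLR and 1.58 and 1.26 in anLR cells. In repeats 3 and 4 it was below, at 0.899 and 0.683 in aLR and 0.728 and 0.796 in anLR cells. Both groups thus crossed 1 between the same repeats. At equal depth the factors were 1.45, 1.86, 1.04 and 0.656 in aLR and 1.23, 1.05, 0.624 and 1.33 in anLR cells, so aLR repeat 3 and anLR repeat 4 lay above 1 as well. The aLR cells of repeats 1 to 4 showed 40, 32, 20 and 31 different members in all, and the anLR cells 35, 19, 17 and 16.

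**Figure D2:**
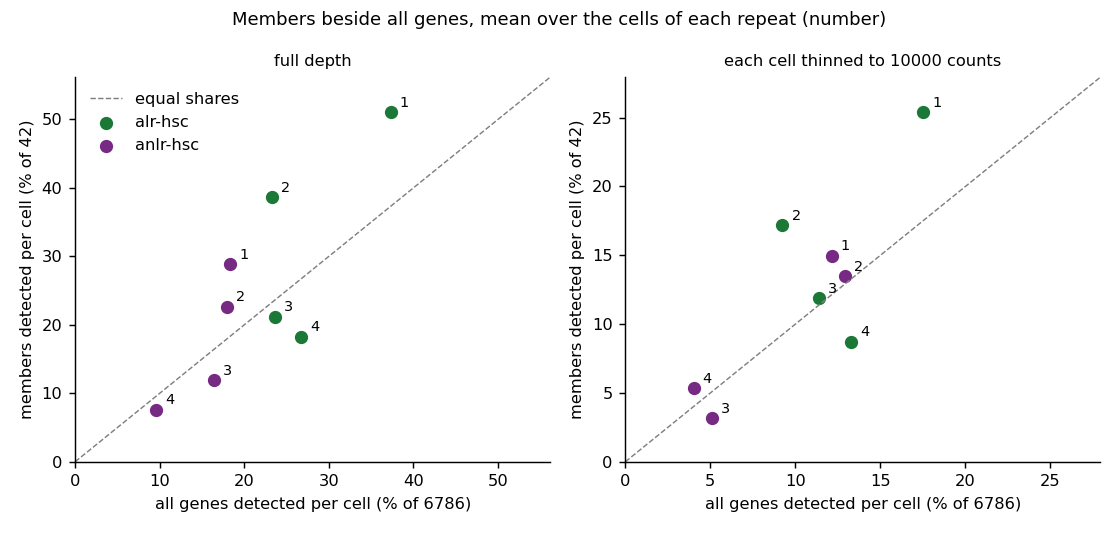
Percent of the 42 members detected per cell against percent of all 6786 genes detected per cell, 1 point for each repeat (number) and group, at full depth (left) and at 10000 counts per cell (right). The dashed line marks equal percentages. At full depth repeats 1 and 2 lie above it and repeats 3 and 4 below it in both groups.

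The evidence behind a detection also differed between the groups. In aLR cells 497 member detections had a median of 16 counts, and 28.0% of them rested on 1 to 3 counts. In anLR cells 197 detections had a median of 2 counts, and 54.3% rested on 1 to 3 counts. Without Mrpl19, described below, 30.2% of aLR detections (median 10.5 counts) and 62.6% of anLR detections rested on 1 to 3 counts. For all genes 31.4% of detections were at 1 to 3 counts in aLR and 50.7% in anLR cells. With at least 10 counts required, aLR cells held 7.49 ± 3.76 members and anLR cells 2.33 ± 1.39 (SD, n = 4 repeats each), with aLR cells ahead in 4 of 4 repeats.

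Mean shares were larger in aLR cells for both subunits of the ribosome. The 28 large-subunit members, among them Mrps30, which despite its name is a large-subunit protein, were found at 32.8 ± 15.8% in aLR and 18.1 ± 10.1% in anLR cells (mean over the 27 with a count, SD over 4 repeats). The 15 other members, assigned to the small subunit by name alone, stood at 31.3 ± 15.7% in aLR and 17.1 ± 9.61% in anLR cells. The 24 members with a bacterial counterpart were found at 35.7 ± 19.2% in aLR and 18.8 ± 8.48% in anLR cells. Those particular to mitochondria, 18 with a count, stood at 27.8 ± 10.5% in aLR and 16.4 ± 11.4% in anLR cells. The differences between classes were smaller than the spread over repeats and were not tested.

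Gene by gene, 36 of the 42 members were found in a larger mean share of aLR cells and 5 in a smaller one. That is 85.7% of the members, beside 86% of all 6786 genes, and 11.9%, beside 13.8%. Shares did not overlap over the 4 repeats for 1 member, Mrpl51, which is 2.38% of the members beside 4.55% of all genes. aLR cells were ahead in 4 of 4 repeats for 6 members, which is 14.3% beside 15.4% of all genes. An exact two-sided permutation test of 4 against 4 repeats has a smallest possible p of 0.0286. It gave an adjusted p under 0.05 for 0 of 6786 genes (0%), with 309 at an unadjusted p under 0.05. The smallest adjusted p was 0.627. An adjusted p under 0.05 would need most of the 6786 genes at the smallest possible p, so the 0 calls say little. With same-numbered repeats paired, an exact sign-flip test of 4 differences cannot reach a p under 0.05, and the smallest p it allows, 0.125, was reached by Mrpl27, Mrpl35, Mrpl51, Mrps12 and Mrps33 among the named members. At 10000 counts per cell 31 members had a larger mean share in aLR cells and 9 a smaller one. Those are 73.8% and 21.4%, beside 59.4% and 20.8% of all genes. Of the 6786 genes 4030 had a larger and 1414 a smaller mean share, and the rest had equal shares in both groups. Equal shares were thus more frequent among all genes than among the members, so these percentages rest on unlike bases. With like cells reduced, 36 members had a larger share in aLR cells (85.7%, beside 83.8% of all genes), and shares did not overlap for 2 of them (4.76%, beside 5.05%), Mrpl35 and Mrps12.

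**Figure D3:**
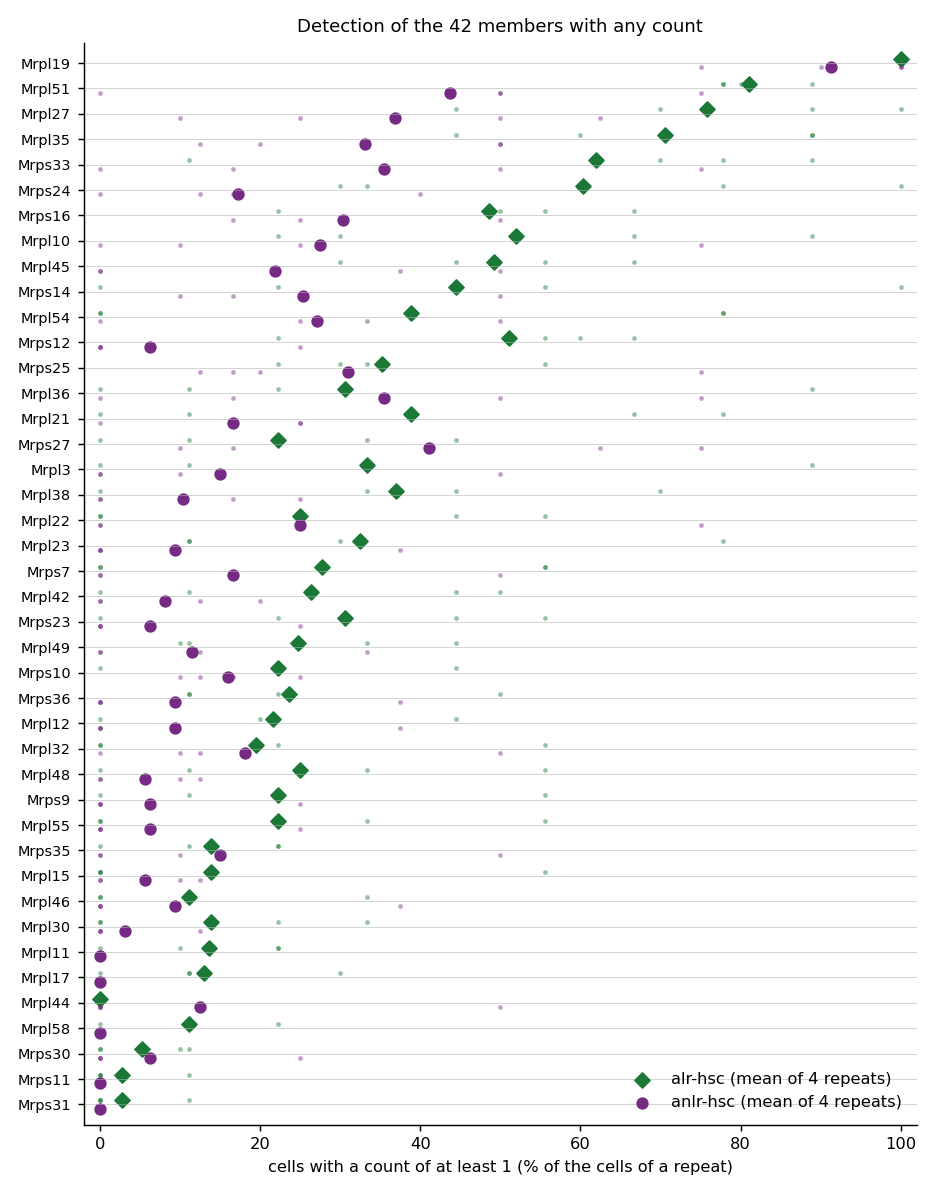
Percent of cells with a count for each of the 42 members, ordered by the number of cells. Large symbols are means over 4 repeats (green diamonds aLR, purple circles anLR) and small points are single repeats. Mean shares were larger in aLR cells for 36 members.

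Among the large-subunit members, Mrpl51, a protein particular to mitochondrial ribosomes (chromosome 6, 125192200 to 125194392), was found in 30 of 37 aLR and 10 of 28 anLR cells. Its shares were 88.9, 77.8, 80 and 77.8% of aLR cells in repeats 1 to 4, against 50, 75.0, 50 and 0% of anLR cells. The lowest aLR repeat thus stood just above the highest anLR one, and the exact permutation test gave an unadjusted p of 0.0286. The cell of anLR repeat 2 without it was cell 9, which held 238 counts in all. With cells under 10000 counts left out, the difference between means was 32.9 percentage points and the exact permutation p was 0.143. Where found, its median count was 38.9 in aLR and 2.17 in anLR cells, and 21 aLR but 2 anLR cells held at least 10 counts. At equal depth the mean shares were 45.8% in aLR and 36.3% in anLR cells (exact permutation p = 0.743). With like cells reduced it was found in 22 of 28 aLR and 6 of 23 anLR cells, and the exact p was 0.0571.

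Mrpl27 (chromosome 11, 94653770 to 94661932), whose bacterial counterpart reaches the peptidyl transferase centre, was found in 28 aLR and 10 anLR cells. The shares were 100, 88.9, 70 and 44.4% in aLR and 62.5, 25.0, 50 and 10% in anLR repeats. aLR cells were ahead within each repeat, although the ranges overlapped (exact permutation p = 0.0857, and 0.0571 at equal depth). At 10 or more counts it remained in 17 aLR cells and 1 anLR cell, and its shares did not overlap between the groups (exact permutation p = 0.0286, unadjusted). Its gene overlaps Eme1 on the other strand, found in 4 aLR and 0 anLR cells, and the kit does not mark strand. Mrpl35 (chromosome 6, 71812997 to 71823784), also with a bacterial counterpart, was found in 26 aLR and 8 anLR cells. Its shares were 88.9, 88.9, 60 and 44.4% in aLR and 12.5, 50, 50 and 20.0% in anLR repeats (exact permutation p = 0.0857). At equal depth this difference was gone, with 21.9% in aLR and 22.9% in anLR cells. With like cells reduced its shares no longer overlapped (20 of 28 aLR and 6 of 23 anLR cells, exact permutation p = 0.0286).

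Mrpl10, the base of the stalk that recruits translation factors, was found in 19 aLR and 6 anLR cells. Shares were 88.9, 66.7, 30 and 22.2% in aLR repeats, against 25.0, 75.0, 0 and 10% in anLR repeats, and in repeat 2 the order was turned round. Mrpl45, which anchors the exit of the peptide tunnel to the inner membrane, was found in 18 aLR and 5 anLR cells. Its shares were 66.7, 44.4, 30 and 55.6% in aLR and 37.5, 50, 0 and 0% in anLR repeats. At 10 or more counts Mrpl10 was in 10 and Mrpl45 in 6 aLR cells, and both were in 0 anLR cells. Mrpl38 and Mrpl48, both of the central protuberance, were found in 14 and 9 aLR and in 3 and 2 anLR cells. Mrpl42, a mitochondria-specific protein of the same subunit, was found in 10 aLR and 3 anLR cells. The ranges over repeats overlapped for all 5.

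Mrpl19 (chromosome 6, 81957826 to 81965949), whose bacterial counterpart lies at the interface of the subunits, stood apart from the rest. It was found in 37 of 37 aLR and 26 of 28 anLR cells, more than any other member, with median counts of 338 in aLR and 471 in anLR cells. Only 17.5% of its values above 0 were whole numbers, beside 65.1% of those of all genes, and its values are treated as uncertain. Of the other named members Mrpl51 (28.6%), Mrpl35 (42.9%), Mrpl48 (45.5%), Mrps27 (50%) and Mrpl10 (59.3%) were below that share as well, and their counts carry the same doubt. Whether reads were split between sequences was not tested. At equal depth it was found in 83.3% of aLR and 96.4% of anLR cells. Its gene also overlaps Gcfc2, which was found in 6 aLR and 3 anLR cells.

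Among the small-subunit members, Mrps12 (chromosome 7, 28739641 to 28741821), the decoding-centre protein whose bacterial counterpart carries streptomycin resistance, was found in 19 aLR and 2 anLR cells. Shares were 55.6, 66.7, 60 and 22.2% in aLR and 25.0, 0, 0 and 0% in anLR repeats, a difference of 44.9 percentage points between means (exact permutation p = 0.0571). The 1 aLR repeat at 22.2% lay under the 1 anLR repeat at 25.0%, and no other values overlapped. All anLR cells together held 3 counts of it, while 12 aLR cells held at least 10 each. With like cells reduced it was in 13 of 28 aLR cells and 1 of 23 anLR cells, and the shares no longer overlapped (exact permutation p = 0.0286). At equal depth the shares were 26.1% in aLR and 3.57% in anLR cells (exact permutation p = 0.257). Sars2, which starts head to head with it, was found in 5 aLR cells and 1 anLR cell.

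Mrps24 (chromosome 11, 5703982 to 5707701), the counterpart of bacterial S3 at the entry of the message, was found in 22 aLR and 6 anLR cells. Its shares were 100, 77.8, 30 and 33.3% in aLR and 12.5, 0, 16.7 and 40% in anLR repeats, with the order turned round in repeat 4 (exact permutation p = 0.0857). At equal depth the ranges no longer overlapped, with means of 29.7% in aLR and 3.13% in anLR cells (exact permutation p = 0.0286). That made it 1 of 42 members (2.38%), beside 1.47% of all genes at that depth. The thinning was 1 random draw of counts. It left out anLR cell 22 of repeat 4, which held 108 counts of Mrps24 in a total of 4220. In aLR repeat 4 only cell 37, at 106.5 counts, held more than 3.5 counts of it before thinning. In the summed counts described below the log2 fold change of Mrps24 was -2.80, and 3.92 with the repeat as a block. Mrps33, a mitochondria-specific protein (chromosome 6, 39801804 to 39810936), was found in 23 aLR and 9 anLR cells. Its shares were 88.9, 77.8, 70 and 11.1% in aLR and 75.0, 50, 16.7 and 0% in anLR repeats. aLR cells were ahead within all 4 repeats while the ranges overlapped (exact permutation p = 0.286). Mrps16, linked in humans to a respiratory chain deficiency, was found in 18 aLR and 8 anLR cells. Mrps14, a protein of the small subunit's head, was found in 16 aLR and 6 anLR cells, with 9 of its 16 aLR cells in repeat 1.

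**Figure D4:**
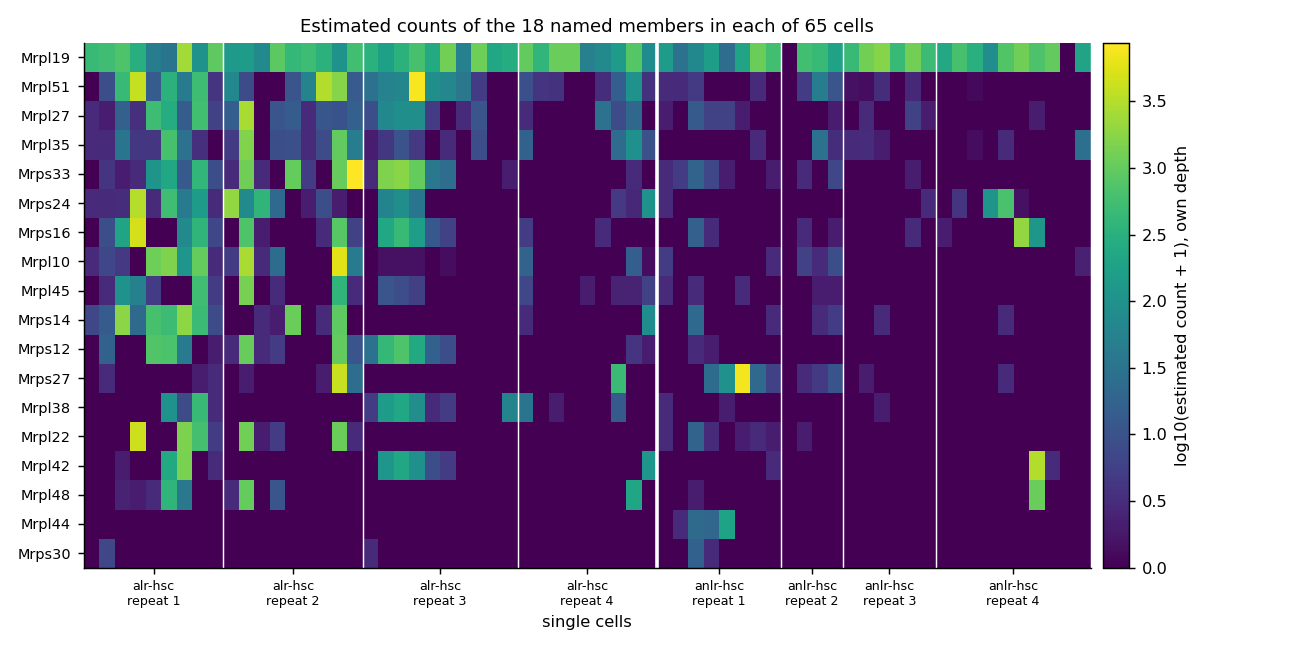
Estimated counts at each cell's own depth, as log10(count + 1), of the 18 named members (rows) in 65 cells (columns, aLR left of anLR, by repeat). Mrpl19 has a count in 63 cells. Mrpl44 has counts in 4 cells of anLR repeat 1 and in 0 of 37 aLR cells.

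Few members went the other way in detection. Mrpl44, which has the fold of an RNase III enzyme and binds ribosomal RNA (chromosome 1, 79776018 to 79781445), was found in 0 of 37 aLR and 4 of 28 anLR cells. All 4 cells belonged to repeat 1, where it reached 50%, and 3 of them held at least 10 counts. For 0 of 37 the exact 95% upper limit of the share with a count is 9.49%. That limit takes cells as independent, while the 4 anLR cells all came from 1 repeat. Its gene overlaps Wdfy1, which was found in 33 aLR and 24 anLR cells. Mrps27, a pentatricopeptide repeat protein of the small subunit (chromosome 13, 99344767 to 99415562), was found in 8 aLR and 10 anLR cells. Its shares were 33.3, 44.4, 0 and 11.1% in aLR and 62.5, 75.0, 16.7 and 10% in anLR repeats (exact permutation p = 0.343), so anLR cells were ahead in 3 of 4 repeats. The transcript 6430562O15Rik, which overlaps Mrps27, was found in 2 aLR and 6 anLR cells. Mrps30 was found in 2 cells of each group. Mrpl22, which lines the peptide tunnel, was found in 9 aLR and 7 anLR cells, with a mean share of 25.0% in both. Its cells were spread alike, with 44.4 and 55.6% in aLR and 75.0 and 25.0% in anLR repeats 1 and 2, and 0 in repeats 3 and 4 of both groups. Mrpl36 and Mrps35, outside the naming rule, also had a smaller mean share in aLR cells over repeats, by 4.86 and 1.11 percentage points, although not when all cells were pooled.

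The other 24 members with a count, all outside the naming rule, were found in 1 to 21 cells each. Of these Mrpl54 (14 aLR and 7 anLR cells) and Mrps25 (13 and 7) were the most frequent. Mrpl11, Mrpl17 and Mrpl58, the last a peptidyl-tRNA hydrolase built into the large subunit, were found in 5, 5 and 4 aLR cells and in 0 of 28 anLR cells. For 0 of 28 the exact 95% upper limit of the share with a count is 12.3%. It takes the cells of a repeat as independent and says nothing of cells that express the gene below detection. Mrps11 and Mrps31 were found in 1 aLR cell each.

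For levels, the counts of all cells of 1 group in 1 repeat were added up, and comparisons were made for the 29 members that passed a filter on low values among 2781 genes. edgeR's quasi-likelihood test called 0 of 2781 genes at an adjusted p under 0.05 (0%), with 181 genes higher and 125 lower in aLR cells at an unadjusted p under 0.05 and a smallest adjusted p of 0.319. The members among those with an unadjusted p under 0.05 were Mrps12 and Mrps33, higher (6.51% of all genes were), and Mrpl42, lower (4.49% of all genes were). DESeq2 called 11 genes (0.396%) and 0 members. It gave no adjusted p for Mrpl3, Mrpl23, Mrpl42, Mrpl45, Mrpl48, Mrps16, Mrps24 and Mrps27, and so could not call them. With the repeat as a block edgeR again called 0 genes. An unadjusted p under 0.05 was found for 214 higher (7.7%) and 9 lower genes (0.324%), where Mrps12 was the only member among them. Of the 29 members 23 had a log2 fold change above 0, beside 65.2% of all genes tested (26 of 29 with the block, beside 74.5%), and the median was 2.15 for the members and 1.13 for all genes. Because the filter passes members through the group in which they are high, these figures describe and support nothing. With like cells reduced the medians were 2.16 for the members and 1.68 for all genes. Without aLR repeat 2 the median of the members was 0.77, beside 0.86 for all genes. The scaling moved both together, to 1.54 and 0.60 with DESeq2 size factors and to 2.69 and 1.77 with total counts. A p that misses the threshold does not show that levels were alike, and the sums varied widely, with a common dispersion of 3.37.

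The highest fold changes, on the log2 scale of edgeR's fitted levels with aLR over anLR cells, were those of Mrps12, Mrpl38 and Mrps33. Mrps12 had 22.3, 112, 341 and 1.76 CPM (counts scaled by TMM to a common total) in aLR and 1.99, 0, 0 and 0 CPM in anLR repeats. Its log2 fold change was 7.37 ± 2.89 (SE, edgeR adjusted p = 0.325), and 13.62 without anLR repeat 1, a value that is no bound because the other 3 anLR repeats were at 0. Each aLR repeat lay above the same anLR repeat, and the 1.76 CPM of repeat 4 lay under the 1.99 CPM of anLR repeat 1. Mrps33 had 11.5, 655, 1021 and 0.879 CPM in aLR and 20.6, 31.8, 1.95 and 0 CPM in anLR repeats, with a log2 fold change of 4.97 ± 2.42 (edgeR adjusted p = 0.437). aLR repeats 2 and 3 carried that difference. Mrpl38 had 8.84, 0, 124 and 20.2 CPM in aLR and 1.99, 0, 1.95 and 0 CPM in anLR repeats. Its log2 fold change was 5.06 ± 2.68 (edgeR adjusted p = 0.467), or 3.07 without aLR repeat 3. Few cells carried these levels. In aLR repeat 3 the like cells 20, 21 and 22 held most counts of each. They held 419, 723 and 247 of Mrps12, 1489, 1728 and 1027 of Mrps33 and 147, 221 and 88 of Mrpl38. Cell 18 of repeat 2 held 51.0% of all aLR counts of Mrps33. With like cells reduced the log2 fold changes of Mrps12, Mrps33 and Mrpl38 were 7.35, 5.05 and 4.86. Mrpl51 had 80, 267, 1951 and 60.2 CPM in aLR and 6.64, 230, 9.75 and 0 CPM in anLR repeats. Its log2 fold change of 3.27 ± 2.29 was 0.82 with like cells reduced, 1.15 without aLR repeat 3 and 6.44 without anLR repeat 2.

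The 3 lowest fold changes rested on single cells. Mrpl42 had 25.1, 0, 104 and 51.4 CPM in aLR and 1.33, 0, 0 and 8128 CPM in anLR repeats, with a log2 fold change of -5.49 ± 2.72 (edgeR adjusted p = 0.444). One cell of repeat 4 held 99.9% of its anLR counts. Without that repeat the log2 fold change was 5.96, and with the repeat as a block it was 3.67. Mrpl48 had 6.27, 56.2, 0 and 89.7 CPM in aLR and 0.664, 0, 0 and 2914 CPM in anLR repeats, with 99.9% of the anLR counts in 1 cell. Its log2 fold change was -4.26 ± 2.43, or 2.33 with the block and 6.60 without repeat 4 of the anLR cells. Mrps16 had 82.0, 84.7, 205 and 2.64 CPM in aLR and 11.3, 11.9, 3.90 and 5567 CPM in anLR repeats, with 93.2% of the anLR counts in 1 cell. Its log2 fold change was -3.90 ± 2.50, or 2.50 with the block and 3.00 without that repeat. All of these members were nonetheless found in a larger share of aLR cells. Mrpl19, whose values are uncertain, was lower in aLR cells in each repeat. It had 83.6, 172, 1110 and 2088 CPM in aLR and 1531, 4811, 11038 and 13349 CPM in anLR repeats. Its log2 fold change was -3.15 ± 2.44 (edgeR adjusted p = 0.560), and -3.75 with the block. When 1 repeat of a group was left out it ran from -4.09 to -2.50.

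**Figure D5:**
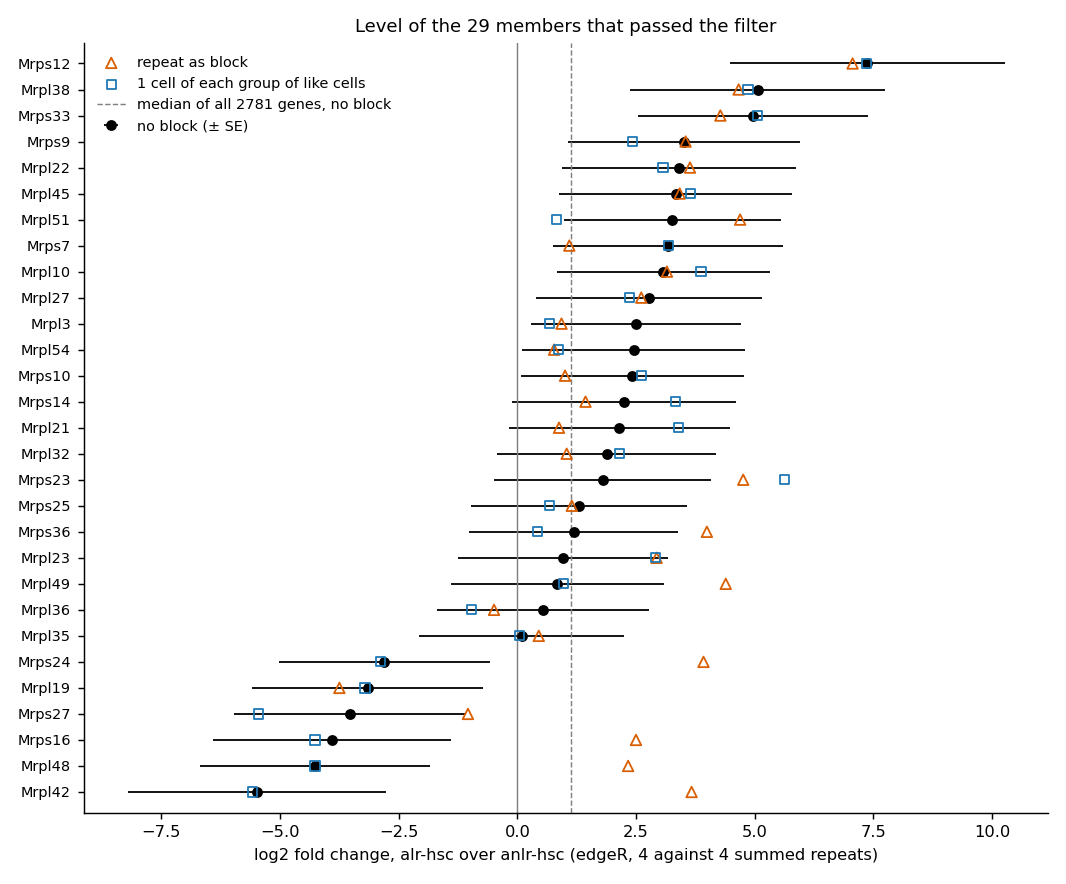
log2 fold change (aLR over anLR) of the 29 members that passed the filter, with SE (black), with the repeat as a block (orange triangles) and with like cells reduced (blue squares). The dashed line is the median of all genes tested, 1.13. With the block, Mrps24, Mrps16, Mrpl48 and Mrpl42 change sign, and Mrpl36 does so the other way.

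As a share of all counts in a cell the members took 0.646 ± 0.178% in aLR and 0.867 ± 0.429% in anLR cells (SD, n = 4 repeats each). By repeat the shares were 0.752, 0.808, 0.614 and 0.409% in aLR and 1.14, 0.613, 0.403 and 1.31% in anLR cells, so the groups overlapped and aLR cells were ahead in 2 of 4 repeats. The difference of -0.22 percentage points was -0.0722 without anLR repeat 4 and -0.375 without anLR repeat 3. With cells under 10000 counts left out it was -0.20, and aLR cells were ahead in 1 of 4 repeats. Mrpl19 alone took 0.291% in aLR and 0.546% in anLR cells. Without it the rest took 0.355 ± 0.208% in aLR and 0.320 ± 0.328% in anLR cells.

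Other nuclear genes of mitochondrial translation were set beside the members. Of 9 translation factors with a count all 9 had a larger mean share in aLR cells, and 6 did at equal depth. Mtif2, which brings the initiator tRNA, was found in 27 aLR and 17 anLR cells. Gfm2, a factor of ribosome recycling, was found in 16 aLR and 3 anLR cells, and Tsfm, an elongation factor, in 14 and 5. Of 11 assembly factors and rRNA-modifying enzymes 9 had a larger and 2 a smaller mean share in aLR cells, and at equal depth 7 had a larger and 4 a smaller one. Ybey, an endoribonuclease of ribosomal RNA, was found in 24 aLR and 9 anLR cells, and Mterf3, which acts in large-subunit assembly, in 22 and 3. At full depth the shares of Ybey, Mterf3 and Dhx30 did not overlap between the groups, as held for 4.55% of all genes. Dhx30, an RNA helicase of mitochondrial RNA granules, was found in 17 aLR cells and in none of the 28 anLR cells, and is named because of that value. Of 9 mitochondrial tRNA synthetases all 9 had a larger mean share in aLR cells, and at equal depth 3 had a larger and 4 a smaller one. Lars2, for leucine, was found in 35 aLR and 24 anLR cells. Chchd1 and Ptcd3, ribosomal proteins with other names, were found in 12 and 5 aLR and in 4 and 3 anLR cells. None of these 31 genes had an adjusted p under 0.05 in the detection test, nor did any of the 10 among them that passed the filter for levels. The detection test could hardly call any gene, and edgeR called no changed gene in simulated data at this dispersion, so this says little. Beside the counts of larger mean shares in these lists, 86% of all genes had a larger mean share in aLR cells.

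Markers of the labelled cell type and of others were counted in the same way. All 7 stem cell markers with a count had a larger mean share in aLR cells, beside 86% of all genes. At equal depth 6 of them did, beside 59.4% of all genes, many of which had equal shares in both groups. The transcription factors Hlf (31 aLR and 12 anLR cells), Gata2 (24 and 10) and Meis1 (23 and 11) were found most often, and Fgd5 was found in 1 cell of each group. Slamf1, which encodes the CD150 used in the sort, was at 0 in every cell. Of the 3 erythroid genes in the table Hba-a1 was found in 36 aLR and 24 anLR cells, Hbb-bs in 31 and 24 and Hba-a2 in 12 and 14. Hba-a1 had a larger mean share in aLR cells and the other two a smaller one, and at equal depth all 3 had a smaller one. Together they took 0.143 to 9.30% of counts over aLR and 0.386 to 3.18% over anLR repeats. The neutrophil markers Elane and Mpo, the macrophage markers Csf1r and Adgre1 and the T cell marker Cd4 were at 0 in every cell. The macrophage marker Cd68 was found in 7 aLR and 0 anLR cells and the B cell marker Cd79a in 8 and 3. Of the platelet lineage genes Itgb3 was found in 30 aLR and 9 anLR cells, Vwf in 16 and 8 and Itga2b in 11 and 2. The part of these markers in the detection of the members was not tested.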

How the data were processed

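Single-cell RNA-seq of 65 stem cells was analysed from 1 table. Per the labels' protocols cDNA was made with SMART-Seq v4 and libraries with Nextera XT. Per the submitters' processing notes the authors used the mm10 build and DESeq. Which aligner, counter and annotation they used is not given in these sources. The deposited values are estimated counts. They show no scaling, although the table's name calls them normalized, so they were treated as unscaled expected counts, and sums were rounded. Of 18036 identifiers 16262 matched RefSeq for GRCm38.p6, and the 1774 others held 0.108% of counts. The 4 Mrpl and Mrps pseudogene rows, all at 0, were left out.

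The repeat was the replicate. Detection was tested per gene with an exact permutation of 4 against 4 repeat shares. Levels were tested with edgeR 4.0.16 (R 4.3.3, TMM, robust quasi-likelihood fit) on 8 sums, for genes with a mean of at least 10 counts over the 8 means per cell and a count in at least 10 cells. Both used Benjamini-Hochberg adjustment over all genes. TMM factors were 0.285 and 0.223 in anLR repeats 3 and 4 and 1.43 to 2.07 elsewhere. Both tests were checked on simulated data, where edgeR called none of the changed genes at the dispersion of these sums, so its count of 0 calls says little. Alternatives were DESeq2 1.42.0, other scalings and filters, a minimum of 10 counts, thinning to 10000 counts, leaving out cells under 10000 counts and leaving out each repeat. After seeing the data, reducing like cells and leaving out Mrpl19 were added. The deviations of same-numbered repeats of the 2 groups correlated at 0.554, 0.293, 0.171 and 0.159, and those of other pairs of repeats at -0.278 to 0.146. Repeats 3 and 4 were thus barely told apart, and the 3 like pairs across groups all lay in repeat 1. Per the series design same-numbered repeats are biological repeats, so the repeat as a block was an alternative to the unblocked fit.

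Members are all protein-coding Mrpl and Mrps genes. Named were the 10 found in most cells, those with shares that do not overlap, the 3 highest and 3 lowest fold changes, and up to 5 with a larger share of anLR cells (counted over all cells of a group). The members and lists were chosen with earlier results of these data known. Nothing says that the cells of a repeat came from different mice, so p-values measure the spread between these repeats.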

Additional observations from a re-analysis of the deposited data

Results flagged for a closer look

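Mrpl44 stood at 50% of cells in anLR repeat 1 and at 0% in the other 3 repeats of that group. Mrps12 stood at 25% of cells in anLR repeat 1 and at 0% in its other 3. Mrps30 likewise stood at 25% in anLR repeat 1 and at 0% in its other 3. Each was marked because 1 repeat lay far from the others of its group. Of 40 groups of 4 values examined (18 named members, members per cell and share of counts) 3 were so marked. Chance marks about 1 in 20 groups, a rate that does not apply to these 3, since with the other repeats at 0 any share above 0 is marked. Other members were not examined, and Mrpl12, Mrpl23, Mrpl46 and Mrps36 stood at 37.5% of cells in anLR repeat 1 and at 0% in its other 3 repeats.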

How the results depend on the processing

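Sign and rough size (counts within 1.5 times, values within 1 SD over repeats) held for 66 of 70 recomputed main results. Among those are counts of 0 detection calls, an outcome that test could hardly change. For single members only the sign was compared, and it was not reversed in 478 of 499 recomputed values. A main difference of 0, as for Mrpl22, could not be reversed, and blocked detection repeats the main difference. The p of single members did move. That of Mrpl51 in the exact permutation test was 0.0286 at full depth and 0.743 at equal depth. DESeq2 called 11 genes where edgeR called 0. The difference in members per cell, 6.10 at full depth, was 2.75 at 10000 counts per cell and ran from 3.47 to 8.07 when 1 repeat of a group was left out, lowest without aLR repeat 1. The difference in the share of counts, -0.22 percentage points, was 0.0349 without Mrpl19 and ran from -0.375 to -0.0722 when 1 repeat was left out. With the repeat as a block edgeR called 0 genes, 9 rather than 125 genes were lower at an unadjusted p under 0.05 (214 rather than 181 higher), and the log2 fold changes of Mrpl42, Mrpl48, Mrps16 and Mrps24 were 3.67, 2.33, 2.50 and 3.92. The block changed no other call. The log2 fold change of Mrps24, -2.80 in the unblocked fit, was 0.090 with total counts. When 1 repeat of a group was left out, it ran from -3.31 to 4.88 for Mrps24, from -6.32 to 5.96 for Mrpl42, from -4.81 to 6.60 for Mrpl48, from -4.63 to 3.00 for Mrps16 and from -4.57 to 2.32 for Mrps27, highest without anLR repeat 4 (Mrps27: without anLR repeat 1). That of Mrpl35, 0.09, was -0.54 with DESeq2 and with its size factors, and ran from -0.98 to 1.29 without 1 repeat. Detection differences at 10000 counts per cell were -13.1 percentage points for Mrpl19 and -0.97 for Mrpl35. That of Mrps30, -0.97, ran from -3.06 to 5.28 without 1 repeat. The causes were not tested. Depth limits all of this: thinning was 1 random draw per cell, and 4 cells under 10000 counts could not be thinned.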
